A study of Saccharomyces cerevisiae with 37 samples.

Results

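The RAD genes of budding yeast (Saccharomyces cerevisiae) were named for mutants that are sensitive to radiation, and most of their products repair DNA or signal that it is broken. They were taken as every gene whose platform symbol was RAD followed by a number, which gave 29 of the 5449 genes named on the array, each with 1 probe set. By repair route, 14 belonged to excision repair (RAD1, RAD2, RAD3, RAD4, RAD7, RAD10, RAD14, RAD16, RAD23, RAD26, RAD27, RAD28, RAD33 and RAD34), 4 to post-replication repair (RAD5, RAD6, RAD18 and RAD30), 6 to recombination (RAD50, RAD52, RAD54, RAD55, RAD57 and RAD59) and 4 to the checkpoint (RAD9, RAD17, RAD24 and RAD53). RAD61, which encodes a cohesin release factor, was kept apart from the routes. Their products act in different ways: excision repair cuts a damaged stretch out of one strand and refills it, post-replication repair lets replication pass a lesion, recombination copies an intact duplex, and the checkpoint kinases halt the cell cycle and switch on repair genes. Methyl methanesulfonate (MMS) adds methyl groups to DNA bases and hydrogen peroxide (H2O2) oxidises them, and in yeast several RAD transcripts are known to be induced by DNA damage.

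All cells were of strain Y262, whose RNA polymerase II is inactivated by heat. Transcription is meant to stop when a culture is warmed, so that the remaining mRNA can be followed as it decays. How complete that stop was in each culture was not tested. The H2O2 culture received 0.3 mM hydrogen peroxide and the MMS culture 0.1% methyl methanesulfonate before the shift, and the times of 25 and 40 min that the labels name were read in that order, while the 2 reference cultures received neither agent. Cells were kept in YPD, a rich medium, at 26 °C, and hot medium at 49 °C took each culture to 37 °C, which was time 0. RNA went onto Affymetrix arrays after 0, 5, 10, 15, 20 and 30 min, time 0 on 2 technical replicates, and after 40, 50 and 60 min in all cultures except reference 2, so the H2O2 culture, the MMS culture and reference 1 had 10 arrays each and reference 2 had 7.

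Values are log2 intensities as deposited. A level is the mean of both time 0 arrays, and a slope is the straight-line change over 0 to 30 min in log2 units per 10 min, negative where a transcript declined. The median of the 3899 genes bright enough to be tested declined by a slope of −0.29 in the H2O2 culture, −0.32 in the MMS culture, −0.40 in reference 1 and −0.30 in reference 2, so slopes and level differences are also given relative to the median gene. Of the RAD genes, 14 were bright enough (8 of excision repair, 4 of recombination, RAD6 and RAD24) and 15 were dim and are given without a test. The whole H2O2 culture stood 0.29 above the references at time 0 in its median gene (0.20 above reference 1 and 0.39 above reference 2), and the MMS culture stood at −0.15 (−0.22 and −0.070). Technical arrays at time 0 differed by 0.018 to 0.46 in the array as a whole in size but by a median of only 0.038 for the RAD genes once that offset was removed (highest 0.15). A control probe set for ribosomal RNA had a mean of −2.31, relative to the median gene, in the H2O2 culture, against −0.59, −0.045 and −0.27 in the MMS culture, reference 1 and reference 2, so the H2O2 culture stood apart in a measure unrelated to repair, and all H2O2 values below come from it. Tests over cultures were run on the deposited values, so their differences and p-values include the offset of a whole culture, while a relative difference has that offset removed and carries no p of its own; the same test on arrays centred on their medians is given beside it where the results turn on it. Each stress had 1 culture, so the p-values assume that a stressed culture varies as the 2 references did. The arrays held alpha-cell transcripts: all 4 markers of MATalpha cells passed the brightness filter, while 0 of 6 markers of MATa cells and 0 of 8 meiotic markers did.

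Before the shift, the recombination genes RAD52 and RAD54 had the largest level differences of the RAD genes after H2O2. RAD52, whose product loads the strand-exchange protein, read 12.81 and 13.24 on the 2 time 0 arrays of the H2O2 culture, against 11.76 and 12.19 in reference 1 and 12.13 and 11.92 in reference 2. Both H2O2 arrays lay above all 4 reference arrays. Its deposited difference was 1.03 (standard error 0.29, 1 culture against 2, adjusted p = 0.0056 by limma). Relative to the median gene the difference was 0.73 (1.66-fold), or 0.85 against reference 1 and 0.61 against reference 2. RAD54, a DNA translocase that works with the strand-exchange filament, read 11.95 and 12.29 in the H2O2 culture, against 11.08 and 11.53 in reference 1 and 11.33 and 11.19 in reference 2. Its deposited difference was 0.84 (adjusted p = 0.033), and its relative difference was 0.54 (1.46-fold), or 0.61 and 0.47 against the 2 references. On the deposited values 2 of the 14 tested RAD genes thus rose and 0 fell, and 11.7% of all tested genes rose by the same rule. With centred arrays 0 of 14 were called, against 3.9% of tested genes called higher: RAD52 had a difference of 0.67 (adjusted p = 0.155) and RAD54 one of 0.48 (0.318). With either time 0 array alone neither was called.

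The other routes moved less after H2O2, and over all 29 genes the median difference was 0.11 relative to the median gene. Excision repair genes spanned −0.43 (RAD27) to 0.32 (RAD23), with 10 of 14 above 0 and a median of 0.13. RAD23, a ubiquitin-like partner of the damage-recognition protein Rad4, stood at 0.25 and 0.38 against the 2 references. RAD27, the flap endonuclease of long-patch base excision and of Okazaki fragment processing, lay at −0.45 and −0.42 against them, the lowest relative value of the family at −0.43. Its deposited difference of −0.14 did not pass the test (adjusted p = 0.78), nor did its difference of −0.49 on centred arrays (adjusted p = 0.306). RAD27 peaks in G1/S phase, and the 13 transcripts listed for that phase all had relative differences below 0, with a median of −0.44. The transcripts listed for G2/M phase lay lower still after H2O2, with a median of −0.60 and 1 of 9 above 0. Among recombination genes the median was 0.29 and 5 of 6 were above 0, the exception being the dim RAD55 at −0.17. In post-replication repair the values were −0.36 for RAD5, a ubiquitin ligase and helicase, −0.029 for RAD30, a translesion polymerase, 0.13 for RAD18 and 0.15 for RAD6. The checkpoint genes RAD9, RAD17, RAD24 and RAD53 lay between −0.051 and 0.11, and RAD61 at −0.055. In all, 15 members lay above both references, against 30.7% of all named genes, 6 lay below both, against 43%, and 8 lay between them.

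**Figure D1:**
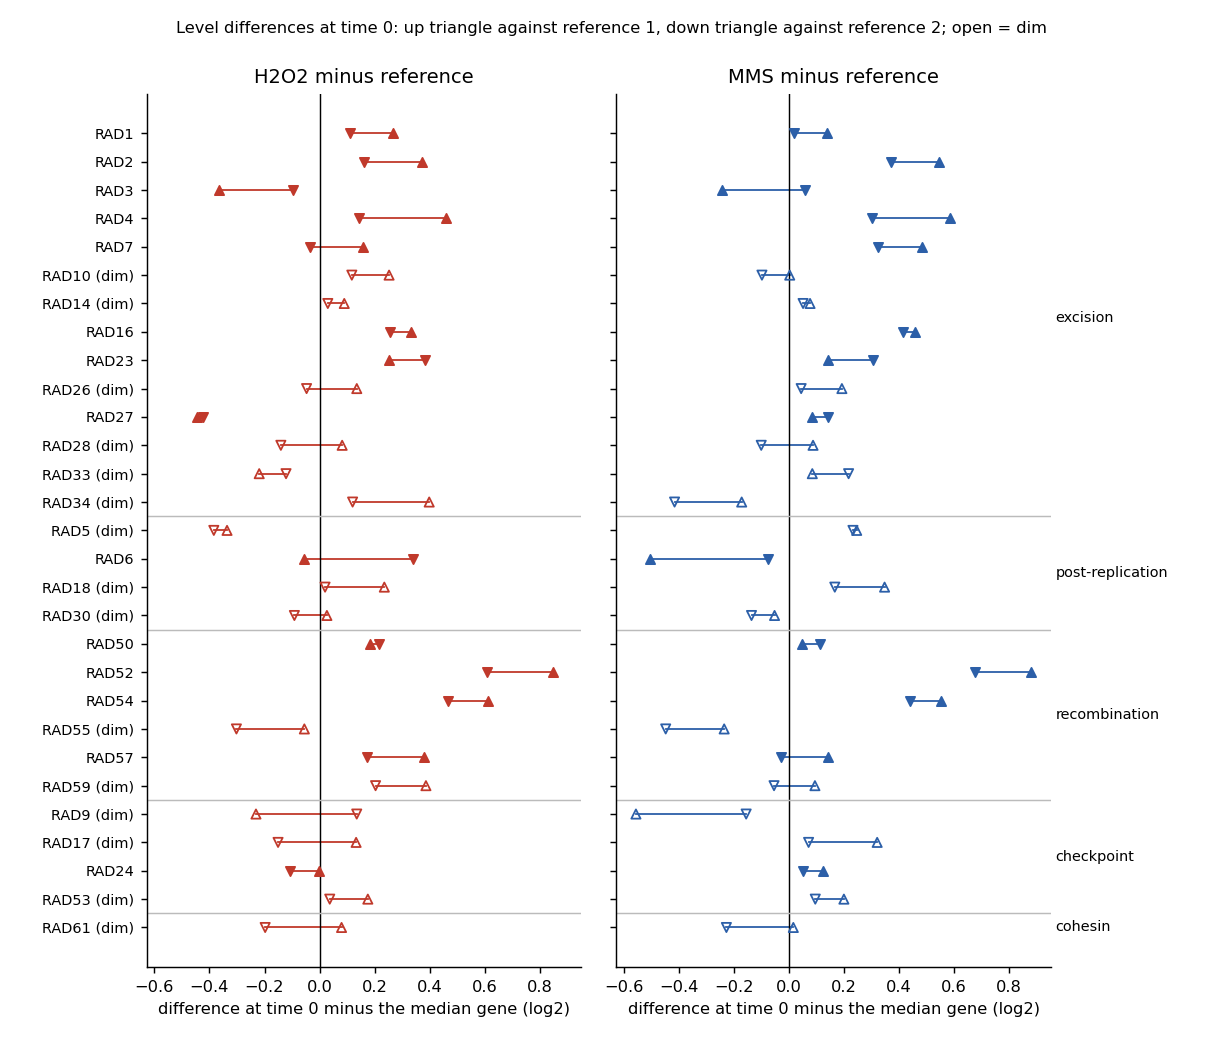
Level differences at time 0 for the 29 RAD genes, by repair route, in log2 units relative to the median gene (H2O2 left, MMS right). Up and down triangles mark the difference against reference 1 and reference 2, and open triangles are dim probe sets; RAD52 lies furthest to the right in both panels, at 0.85 and 0.61 after H2O2 and at 0.88 and 0.67 after MMS.

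After MMS, RAD52 again led the family, followed by RAD54 and 4 genes of excision repair, but none of the 14 tested RAD genes passed the test. RAD52 read 12.64 and 12.62 on the time 0 arrays of the MMS culture, above all 4 reference arrays given before, and its relative difference was 0.78 (1.72-fold). Its deposited difference was 0.63 (standard error 0.29, adjusted p = 0.21) and its difference on centred arrays was 0.65 (adjusted p = 0.183). RAD54 read 11.64 and 11.63, again above the references, with a relative difference of 0.50 and a deposited difference of 0.35 (adjusted p = 0.54). The count of 0 called compares with 6% of all tested genes, and at an unadjusted p under 0.05 only RAD52 passed, against 18.1% of tested genes. RAD2, the endonuclease that makes one of the cuts of excision repair, had 11.49 in the MMS culture, against 11.16 and 11.19 in the references (relative difference 0.46). RAD4, the damage-recognition protein, had 11.39, against 11.03 and 11.16 (0.44), and RAD16, an ATPase of global genome repair, had 11.30, against 11.07 and 10.96 (0.44). RAD7, the partner of Rad16, had 11.80, against 11.54 in both references (0.40). These 4 lay above both references whichever reference was used. The family's lower end was RAD9 at −0.35, RAD55 at −0.34, RAD34 at −0.29 and RAD6 at −0.29, the first 3 of which are dim. Over all 29 the median was 0.089, with 18 above both references (34.4% of named genes) and 5 below both (42%).

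Compared directly, H2O2 minus MMS, the family had a median of −0.066 relative to the median gene. RAD27 stood at −0.59 and RAD7 at −0.39, while RAD6, the ubiquitin-conjugating enzyme that starts post-replication repair, stood at 0.39. RAD6 read 14.09 in the H2O2 culture and 13.22 in the MMS culture, with 13.95 and 13.36 in the references, so that the references themselves spanned most of that difference. None of the 14 was called (8.31% of tested genes were), and RAD6 (deposited difference 0.88, adjusted p = 0.0745) and RAD57 (0.66, adjusted p = 0.15) passed at an unadjusted p under 0.05, as did 31.6% of tested genes. On centred arrays RAD6 had 0.50 (adjusted p = 0.619). This comparison shares its cultures with the 2 before it.

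In the reference cultures the RAD transcripts decayed at very different rates. RAD27 was the fastest: its slope was −1.03 in reference 1 and −0.66 in reference 2, which correspond to half-lives of 9.72 and 15.2 min. These half-lives are rough, since the standard errors of the 2 lines were 0.20 and 0.35. In reference 2 its values did not follow a line, with 9.96 at 15 min and 10.71 at 30 min. RAD27 lay at −0.50 relative to the median gene (standard error 0.076, 2 cultures, adjusted p = 0.016 by limma). RAD52 and RAD4 were slower than the median gene, RAD52 with slopes of −0.18 and −0.12 (relative 0.20, adjusted p = 0.030) and RAD4 with −0.20 and −0.16 (relative 0.17, adjusted p = 0.046). RAD24, RAD2 and RAD57 followed at about 0.12 without passing (adjusted p 0.0772 to 0.0896). Of the 14 tested, 2 were thus slower, against 14.3% of tested genes, and 1 was faster, against 17.4%. These calls depend on the time 0 arrays, since over 5 to 30 min 0 of the 3899 genes passed (adjusted p = 0.094 for RAD52 and 0.16 for RAD4 and RAD27), and without the brightness filter RAD52 alone did.

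Dim members gave both extremes as well. RAD5, RAD33 (a nucleotide excision repair factor), RAD9 and RAD53 (the checkpoint adaptor and its effector kinase) lay at −0.25, −0.25, −0.20 and −0.19 relative to the median gene, each below 0 in both references, and RAD59, a paralog of RAD52, lay at 0.23. In total 12 members were slower than the median gene in both references and 8 were faster in both. The shares of all genes are not given, so these counts do not set the RAD genes apart. Over the 29 genes, which share all their arrays, the slopes of the 2 references correlated at r = 0.88, close to the 0.89 over all tested genes, and gene length and mean slope at r = −0.052. Excision repair held both the fast RAD27 and the slow RAD4, and the median relative slope of the 29 genes was 0.018.

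**Figure D2:**
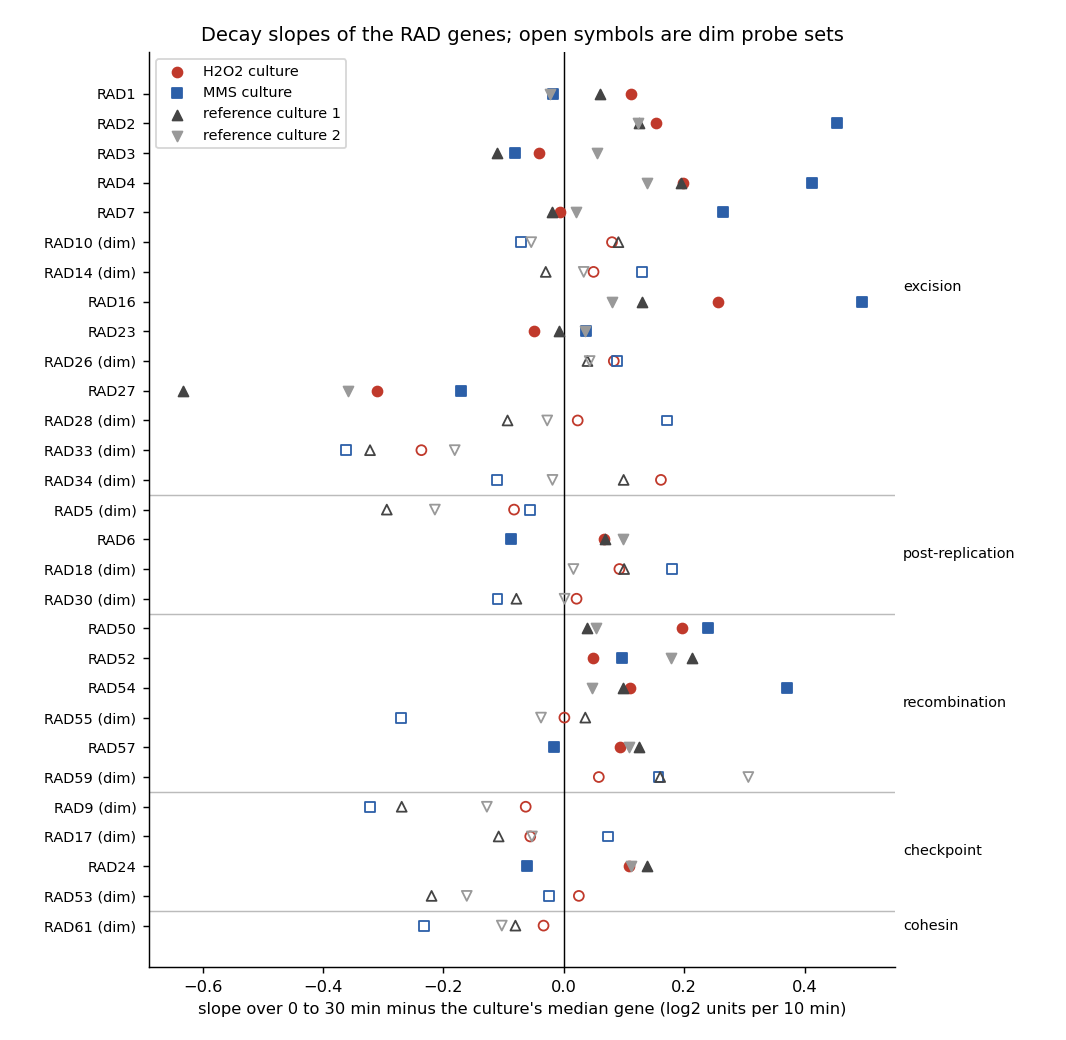
Slopes of the 29 RAD genes over 0 to 30 min minus the slope of the median gene of the same culture, in log2 units per 10 min, by repair route. Filled symbols passed the brightness filter and open ones are dim; the MMS squares of RAD16, RAD2, RAD4, RAD54 and RAD7 lie at 0.26 to 0.49, right of the other 3 cultures, and RAD27 lies left of the line in every culture.

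In the MMS culture after the shift, RAD16, RAD2, RAD4 and RAD54 had slopes above 0. RAD16 read 11.26 and 11.34 at time 0, 11.40 at 5 min, 11.73 at 20 min, 11.82 at 30 min and 12.16 at 60 min in the MMS culture. In the H2O2 culture it read 11.42 and 11.79 at time 0, 11.52 at 30 min and 10.11 at 60 min, and in reference 1 it read 10.86 and 11.27, then 10.31 and 9.91. Reference 2 gave 11.04 and 10.88 at time 0 and 10.27 at 30 min. On the deposited scale RAD16 was thus near its starting value at 30 min in the H2O2 culture, above it in the MMS culture and below it in both references. The median gene of the H2O2 culture itself fell from 12.41 at 30 min to 11.18 at 60 min. Relative to the median gene of each array, RAD16 went from −0.88 to −1.06 between these times after H2O2. After MMS RAD16 went from −0.048 to 0.65, and in reference 1 from −1.54 to −1.42. Its slope was 0.17 in the MMS culture, −0.034 in the H2O2 culture, −0.27 in reference 1 and −0.22 in reference 2.

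RAD2 had slopes of 0.13 in the MMS culture, −0.14 in the H2O2 culture and −0.27 and −0.18 in the references, and read 11.80 at 30 min and 11.86 at 60 min after MMS. RAD4 had slopes of 0.088, −0.093, −0.20 and −0.16 in the same order of cultures, and RAD54 had 0.046, −0.18, −0.30 and −0.26. RAD7 was nearly flat after MMS at −0.060, against −0.30 after H2O2 and −0.42 and −0.28 in the references. Slopes above 0 were found for these 4 members in the MMS culture and for 8.46% of tested genes there, for 0 members in the H2O2 culture and reference 1, and only for the dim RAD59 (0.0051) in reference 2. Relative to the median gene, the 4 excision genes RAD16, RAD2, RAD4 and RAD7 had slopes of 0.49, 0.45, 0.41 and 0.26 in the MMS culture. Slopes not marked as relative are on the deposited scale. A slope above 0 is not a rate of decay, and why these values rose was not tested.

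**Figure D3:**
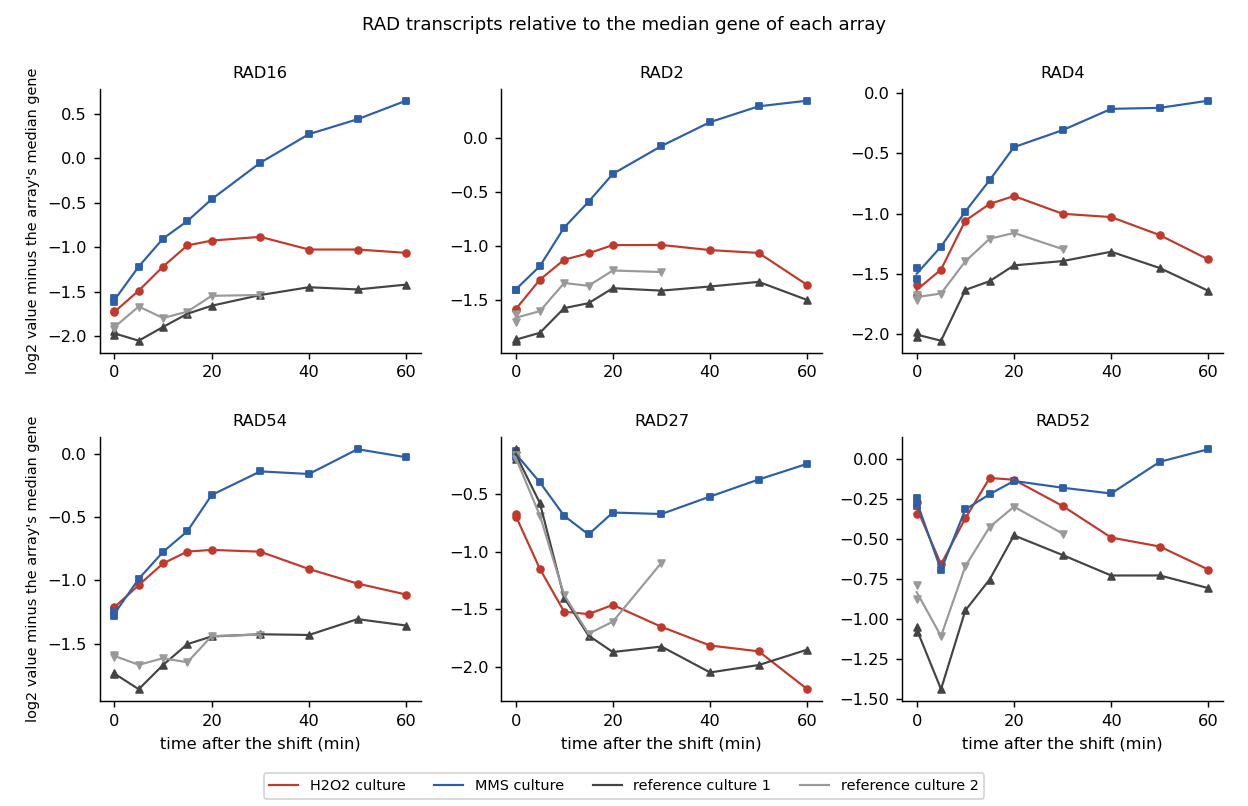
Time courses of 6 RAD transcripts over 0 to 60 min, as log2 value minus the median gene of the same array (points are arrays, lines join the means of each time). The MMS line leaves the others upward in the panels of RAD16, RAD2, RAD4 and RAD54, RAD27 declines least after MMS, and RAD52 starts higher in both stressed cultures than in the references.

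Tested over cultures, no slope difference of the family passed. For MMS minus reference, 0 of 14 were called (1.82% of tested genes were), and RAD16 (deposited difference 0.41, standard error 0.16, adjusted p = 0.19), RAD2 (0.35, adjusted p = 0.34), RAD27 (0.35, adjusted p = 0.35) and RAD54 (0.32, adjusted p = 0.43) passed at an unadjusted p under 0.05, as did 10.4% of tested genes. Their relative differences were 0.38, 0.32, 0.32 and 0.29, and all 4 were above both references. RAD27 rests most on reference 1, with relative differences of 0.46 against it and 0.18 against reference 2, while RAD16 had 0.36 and 0.41 and RAD2 0.32 and 0.33. On centred arrays 0 of the 3899 tested genes were called. RAD16 (0.39), RAD2 (0.33), RAD54 (0.30), RAD7 (0.26), RAD4 (0.24), RAD50 (0.19) and RAD24 (−0.19) had an unadjusted p under 0.05 there. RAD27 (0.32) did not, and the share of all genes under that p on centred arrays is not given. Across the 29 genes 14 slopes lay above both references (34.1% of named genes) and 12 below both (47.4%), and the median difference was 0.014.

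A second fit, added after these values had been seen, took the scatter of centred arrays around each culture's line as the error. Each of the 28 arrays entered as a separate point, so the 2 technical arrays at time 0 counted as 2 observations. This fit compares these 4 cultures and not the treatments, since it leaves out the spread between cultures. Under it, 6 of 14 RAD genes were higher in slope after MMS than in the references, against 17.1% of tested genes, and 3 were lower, against 18.2%. The higher ones were RAD16 (0.40, standard error 0.047, adjusted p = 8.2e-07), RAD2 (0.32), RAD54 (0.31), RAD7 (0.29), RAD4 (0.24) and RAD50 (0.20), the last an ATPase that tethers broken ends. The lower ones were RAD6 (−0.18), RAD24 (−0.17), which loads the checkpoint clamp, and RAD57 (−0.14), a paralog of the strand-exchange protein. The same 6 and RAD6 were also called in that direction against each reference alone (31.3% of genes were called in either direction against reference 1 and 27.7% against reference 2), whereas RAD24 and RAD57 were called only against reference 1. RAD27 (0.47) and RAD1 (−0.081) were called against reference 1 alone as well, though not against the references together. The share of all genes called in the same direction against each reference is not given. Between reference 1 and reference 2 the fit called 0 RAD genes and 0.718% of genes over 0 to 30 min, and RAD1 (0.16, adjusted p = 0.034) and 2.03% of genes over 0 to 20 min. Over 5 to 30 min, without the time 0 arrays, 7 RAD genes were called after MMS (24.4% of genes). RAD4 (0.25) and RAD57 (−0.13) did not pass in that window, with differences close to those over 0 to 30 min. Over 0 to 20 min the fit called 1667 of the 3899 genes after MMS, with 7 RAD genes higher and 2 lower. RAD27 (0.56) was among the higher ones there, and RAD24 (−0.11) did not pass.

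**Figure D4:**
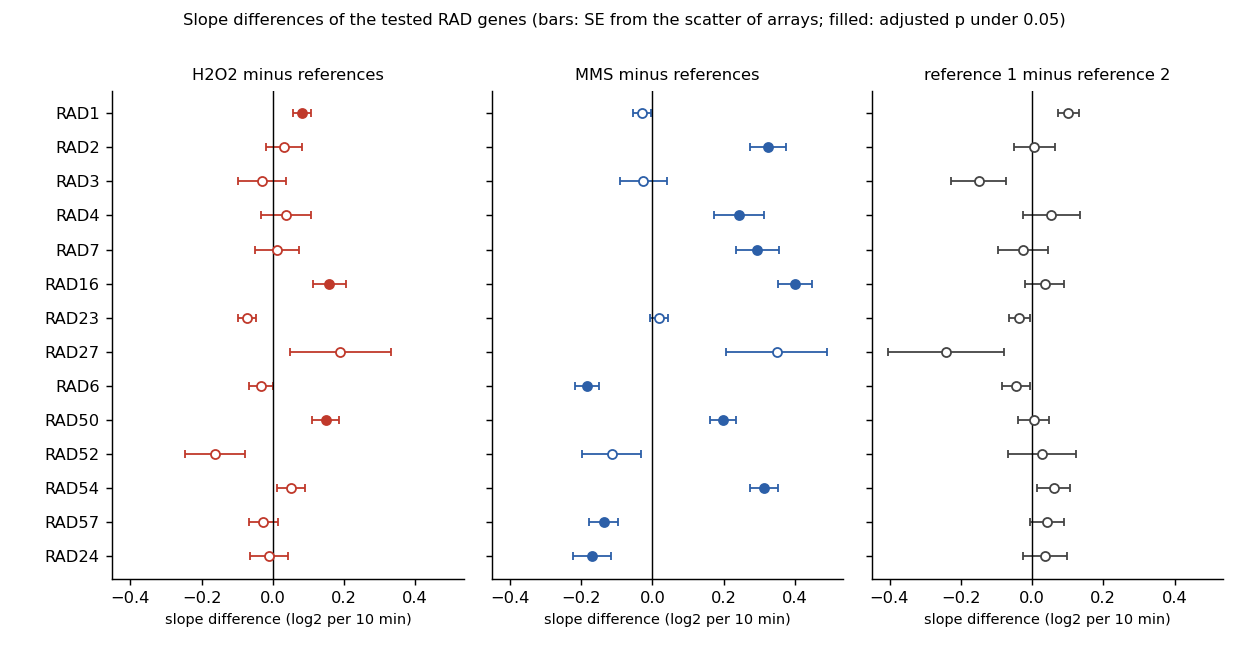
Slope differences of the 14 tested RAD genes in log2 units per 10 min, on centred arrays, for H2O2 minus the references, MMS minus the references, and reference 1 minus reference 2. Bars are standard errors from the scatter of arrays and filled points passed an adjusted p under 0.05; the MMS panel has 9 filled points, the H2O2 panel 3 and the panel of the references 0.

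Partners in one protein complex did not always share the pattern. Rad7 and Rad16 act together in global genome repair, and the slope differences of their genes after MMS were 0.26 and 0.38 relative to the median gene. Rad4 and Rad23 bind each other, but RAD23 had 0.014 where RAD4 had 0.24. Rad1 and Rad10 form the other nuclease of excision repair, and RAD1 had −0.045 and the dim RAD10 −0.098. Rad6 and Rad18 form the ubiquitin ligase of post-replication repair, with −0.18 for RAD6 and 0.11 for the dim RAD18. RAD3, the helicase of the transcription and repair factor TFIIH, had −0.063. RAD3 lies 1 gene away from RAD24 on chromosome V, and RAD24 had −0.20. Differences between partners were not tested.

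After H2O2 no RAD gene differed in slope from the references past the threshold over cultures: 0 of 14 slopes were called (0.795% of tested genes were) and 0 passed at an unadjusted p under 0.05 (4.05% did). The relative differences of the 29 ran from −0.18 (RAD59) to 0.22 (RAD53), with a median of 0.038, and 17 lay above both references (44.3% of named genes) and 6 below both (27%). The second fit called RAD16 (0.16, adjusted p = 0.034), RAD50 (0.15, 0.012) and RAD1 (0.081, 0.046) higher, against 2.72% of tested genes. Against reference 1 alone it called RAD50 only. Over 5 to 30 min none of the 3 passed (6.13% of genes did), with differences of 0.085 for RAD16, 0.10 for RAD50 and 0.079 for RAD1. Over 0 to 20 min RAD16 (0.26, adjusted p = 0.0016), RAD27 (0.42, 0.023) and RAD50 (0.15, 0.044) were called higher (14.6% of genes were called). RAD50 had slopes of −0.095 after H2O2 and −0.084 after MMS, against −0.36 and −0.25 in the references, so both stressed cultures lay above both references for this gene.

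For H2O2 minus MMS in slope, 0 of 14 were called over cultures on the deposited values (2.1% of tested genes) and 0 passed at an unadjusted p under 0.05 (10.2%). On centred arrays 0 of the 3899 tested genes were called. RAD2 (−0.31), RAD7 (−0.28), RAD54 (−0.27) and RAD16 (−0.25) had an unadjusted p under 0.05 there, and the share of all genes under it is not given. The second fit called RAD2 (−0.29), RAD7 (−0.28), RAD54 (−0.26), RAD16 (−0.24) and RAD23 (−0.091) lower, against 18.9% of tested genes, and RAD24 (0.16), RAD6 (0.15) and RAD1 (0.11) higher, against 16.4%. Over 5 to 30 min it called RAD2, RAD7, RAD54, RAD16 and RAD1 (943 of 3899 genes were called). Over 0 to 20 min it called RAD2, RAD54, RAD16, RAD6, RAD1 and also RAD57 (1501 genes were called). RAD23 and RAD24 passed in neither of these windows. RAD2, RAD16 and RAD54 had slopes above 0 after MMS and below 0 after H2O2, and RAD7 declined less after MMS than after H2O2.

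RAD27 and RAD52 had courses of their own. Relative to the median gene of each array, RAD27 stood at −0.69 and −0.67 at time 0 in the H2O2 culture, −0.12 and −0.17 in the MMS culture, −0.11 and −0.19 in reference 1 and −0.20 and −0.16 in reference 2. At 30 min it stood at −1.65 after H2O2, −0.67 after MMS, −1.83 in reference 1 and −1.10 in reference 2. The MMS culture thus kept the most and reference 2 turned up late. RAD27 had the steepest slope of the 14 tested members in every culture, with −0.60 after H2O2 and −0.50 after MMS. The G1/S transcripts also decayed fast in the references, with 0 of 13 above the median gene and a median slope of −0.27, and their part in the RAD27 values was not tested. RAD52 was lower at 5 min than at time 0 and higher at 20 min than at 5 min, relative to the median gene, in every culture. It stood at −0.34 and −0.27 at time 0, −0.66 at 5 min and −0.13 at 20 min after H2O2, at −0.24 and −0.29, then −0.69 and −0.14 after MMS, at −1.05 and −1.08, then −1.44 and −0.48 in reference 1, and at −0.79 and −0.87, then −1.11 and −0.30 in reference 2. Its relative slope differences from the references were −0.15 after H2O2 and −0.11 after MMS. The deposited differences were −0.088 and −0.074, and neither passed (adjusted p 0.999 and 0.968).

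Several dim RAD genes went the other way in the MMS culture, declining faster than the median gene. RAD55, the partner of Rad57, read 10.11 and 10.22 at time 0, 8.38 at 30 min and 6.82 at 60 min after MMS, against 10.58 and 10.96, then 9.90 and 8.51 after H2O2 and 10.42 and 10.83, then 9.51 and 9.16 in reference 1. Relative to the median gene of each array, RAD55 went from −2.51 at 30 min to −2.67 at 60 min after H2O2. In reference 1 it went from −2.34 to −2.17, and after MMS it fell from −3.49 to −4.70. RAD61, RAD34 and RAD9 shared this shape after MMS. Their slopes over 0 to 30 min differed from the references by −0.28 (RAD55), −0.16 (RAD34), −0.15 (RAD61) and −0.13 (RAD9) relative to the median gene. The lower tail of the MMS arrays moved with them: the 10th percentile of all named probe sets stood at −2.57 relative to the median gene at time 0, −3.05 at 30 min and −3.81 at 60 min in the MMS culture, against −2.53, −2.41 and −2.86 in the H2O2 culture and −2.51, −2.46 and −2.37 in reference 1. The 6 markers of MATa cells, all dim, had slope differences of −0.54 to −0.026 after MMS with a median of −0.28. After quantile normalization, which gives all arrays one distribution, RAD55 had slopes of −0.059 after MMS, −0.025 after H2O2 and 0.053 and −0.026 in the references. Not every dim member followed the lower tail, since RAD28, RAD5, RAD53, RAD17, RAD14 and RAD18 had slope differences of 0.11 to 0.22 after MMS. RAD26, RAD30, RAD33, RAD10 and RAD59 lay between −0.12 and 0.039.

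**Figure D5:**
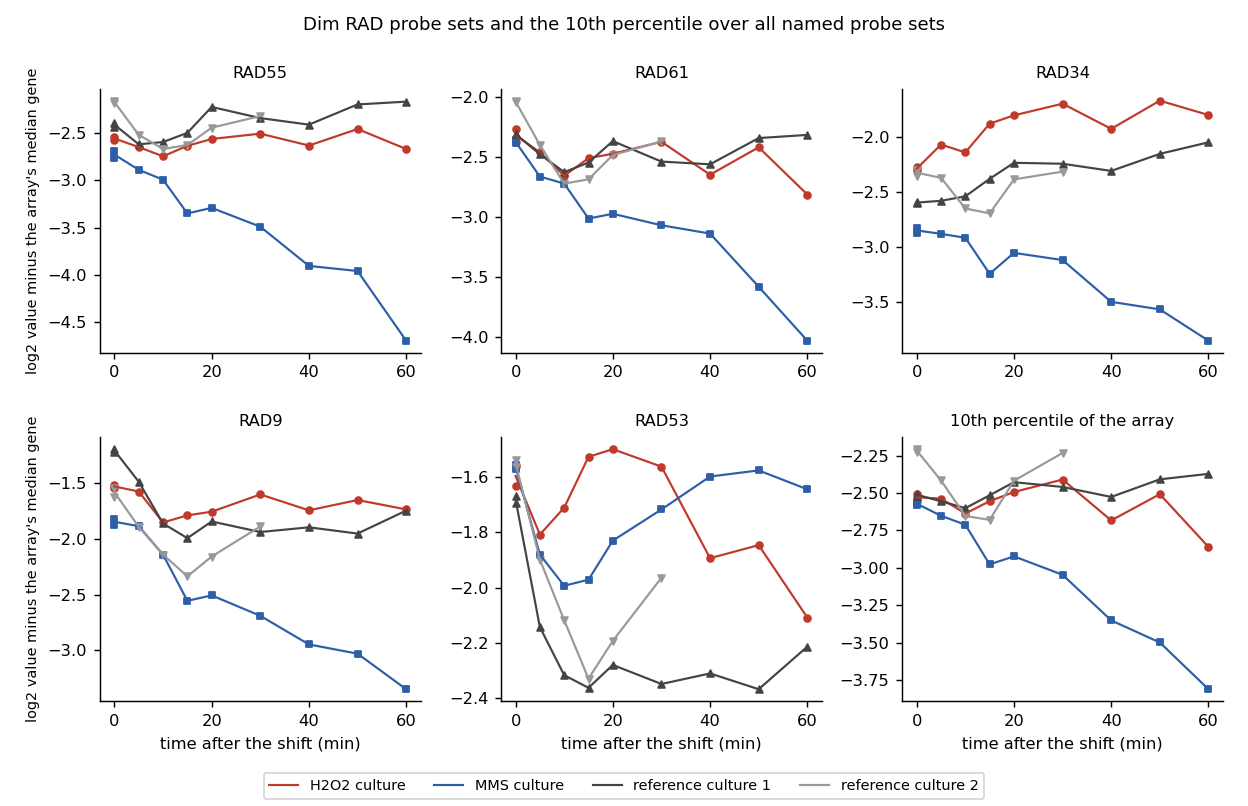
Time courses of 5 dim RAD probe sets and of the 10th percentile over all named probe sets, as log2 value minus the median gene of the same array, over 0 to 60 min. In the MMS culture RAD55, RAD61, RAD34 and RAD9 decline along with the 10th percentile, which reaches −3.81 at 60 min, while RAD53 does not.

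Other genes of the same pathways were read from lists of 21, 12, 22 and 16 further genes of excision repair, post-replication repair, recombination and the checkpoint. After H2O2, 2 of 16 tested excision genes rose in level on the deposited values, close to the 11.7% of all tested genes. They were SSL2 (1.19 relative to the median gene), which encodes a helicase of TFIIH, and NTG1 (1.04), a base excision glycosylase, with adjusted p = 0.0708 and 0.0399 on centred arrays, while 0 fell and no gene of the other 3 lists was called. Compared with MMS directly, SSL2 and the recombination helicase gene SGS1 were called higher after H2O2, with deposited differences of 1.08 and 1.09 that include the offset of 0.49 between these cultures. On centred arrays neither was called (adjusted p = 0.575 and 0.480). After MMS no companion was called in level or slope over cultures. In the second fit, the slopes after MMS were higher for 4 and lower for 2 of 16 excision genes (MSH6 at 0.34, a mismatch recognition gene, TFB5 at −0.25 and CDC9, the DNA ligase, at 0.23). They were higher for 2 and lower for 0 of 7 post-replication genes, POL30 (the sliding clamp, 0.35) and UBC13 (0.13). In recombination 5 of 10 were higher and 1 lower, with RDH54, a relative of RAD54, at 0.34 and RFA2 and RFA3, subunits of the single-strand binding protein, at 0.29 and 0.25. For the checkpoint 7 of 10 were higher and 1 lower, with RFX1 and CHK1 at 0.26 and TOF1 at 0.24. Set beside the shares of all tested genes given above for that fit (17.1% higher and 18.2% lower), the excision list moved in both directions and the checkpoint list mostly upward, without a test of the lists. The G1/S transcripts moved upward too, with 4 of 8 higher, 0 lower and a median difference of 0.15. The median was 0.16 for the checkpoint list and 0.15 for the recombination list. Of the G2/M transcripts 0 of 5 were higher and 3 lower. In the references, 4 of 16 excision, 3 of 7 post-replication, 1 of 10 recombination and 3 of 10 checkpoint genes decayed faster than the median gene (17.4% of all tested genes did), led by MSH6 (−0.43), and 2, 1, 1 and 0 decayed more slowly (14.3% of all tested genes did), led by SSL2 (0.29).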

How the data were processed

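The values that the authors deposited are on a log2 scale and came from RMA, according to the labels and per the submitters' processing notes. The RMA version and the set of arrays normalized as one are not given here. The labels' protocols describe priming from poly-T, so a change of poly(A) tail could change a signal, and the time 0 arrays as technical replicates. In bulk RNA, fewer expressing cells and less RNA per cell cannot be told apart.

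Of 5900 probe sets, 5498 carried 1 gene in the platform annotation and all matched a RefSeq gene table; the brightest stood for each of 5449 genes. The brightness filter kept the 3899 genes with a mean above 11.04 (the 30th percentile of probe sets) on the 28 arrays at 0 to 30 min. limma 3.58.1 in R 4.3.3 fitted 1 value per gene and culture (level at time 0, or least-squares slope over 6 time points), with 1 residual degree of freedom and Benjamini-Hochberg adjustment over all tested genes at 0.05. limma draws each gene's variance towards a shared value, with a prior weight of 235 degrees of freedom for levels and an infinite one for slopes. All genes thus shared 1 standard error (0.16 for stress minus reference slopes), and those slope p-values rank only the size of the deposited difference. The reference slope was tested against the median gene, with a prior weight of 3.5 degrees of freedom. Relative differences subtract the median difference of the tested genes. The fit on array scatter, added after the values had been seen, used an intercept and a slope per culture. The code was tested on simulated data. The number of cultures limits the precision.

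Every RAD gene is named, and of each companion list up to 3 called genes per comparison with the largest differences. The members and lists were chosen with earlier results of these data known. Alternatives were centred arrays, quantile normalization, no filter or a stricter one, the mean of probe sets, single time 0 arrays, other time windows and leaving out a reference. No sequences were used.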

Additional observations from a re-analysis of the deposited data

Results flagged for a closer look

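For some members the H2O2 culture lay on one side of both references and the MMS culture on the other, relative to the median gene, with H2O2 minus MMS as the value. In level these were RAD27 (−0.59) and RAD24 (−0.19) among tested members, and the dim RAD5 (−0.64), RAD33 (−0.36) and RAD34 (0.51). In slope they were the dim RAD9 (0.26), RAD30 (0.14), RAD34 (0.28) and RAD61 (0.20). After quantile normalization none of these slopes kept that pattern. The MMS slope of RAD9 (−0.16), RAD30 (0.017) and RAD34 (0.073) then lay between those of the references. For RAD61 it was −0.056, above both references (−0.090 and −0.11). In level RAD5 and RAD34 kept the pattern, while for RAD27, RAD24 and RAD33 the MMS culture lay between the references. The difference was not tested in the dim members. On centred arrays the direct comparison gave RAD27 −0.48 (adjusted p = 0.588 by limma) and RAD24 −0.073 (0.929), and RAD24 after H2O2 lay only −0.0015 from reference 1.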

How the results depend on the processing

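No called RAD gene changed direction under the alternatives run, but medians over the 29 genes near 0 changed sign: for slopes after H2O2 0.038 became −0.0043 over 5 to 30 min and −0.041 over 0 to 60 min without reference 2, for slopes after MMS 0.014 became −0.037 over 5 to 30 min, and for H2O2 minus MMS −0.022 became 0.0023 over 5 to 30 min. For levels after H2O2, the count of RAD genes called was 2, and it was 0 with centred arrays, 0 after quantile normalization, 0 with either time 0 array alone, and 1 without the brightness filter or with a stricter one. For the decay in the references the count was 3, and it was 5 after quantile normalization, 1 without the filter, 1 with the stricter filter and 0 over 5 to 30 min. With array scatter as the error, the slope counts were 3 for H2O2, 9 for MMS and 8 for H2O2 minus MMS, against 0 in each over cultures. The cause was not tested, except that the stricter filter left only 4 RAD genes to test.

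Leaving out either reference moved the median over the RAD genes between 0.037 and 0.16 for levels after H2O2, 0.059 and 0.12 for levels after MMS, 0.043 and 0.045 for slopes after H2O2, 0.00057 and 0.038 for slopes after MMS, and 0.020 and 0.039 for the reference slopes. Over all tested genes, 458 rose and 30 fell in level after H2O2, against 152 and 40 with centred arrays and 106 and 18 after quantile normalization. After MMS 111 rose and 123 fell, against 58 and 30 and then 32 and 3, and for H2O2 minus MMS 311 and 13 became 6 and 2 and then 1 and 2. The slope counts of all genes (31 for H2O2, 71 for MMS, 82 for H2O2 minus MMS) were 0 under both. In the references 556 slopes above and 677 below the median gene became 305 and 328 without the filter. No paired analysis was possible because each stress had 1 culture.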
